A study of Macaca fascicularis with 10 samples.

Results

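Signals of cytosolic ribosomal protein genes were compared on 10 Affymetrix Rhesus Macaque arrays of cynomolgus monkey (Macaca fascicularis) cells. The genes were taken by symbol (RPL or RPLP, and RPS or RPSA, without the S6 kinases and RPS4Y), from probe sets annotated to that symbol alone. Where a gene had several such probe sets, the brightest by mean log2 signal over the 10 arrays stood for it. The rule gave 41 of the 14132 genes that have such a probe set. The gene table of the assembly named below holds 85 symbols that fit the rule, so the 41 are only a part of the family. Of the 41 genes, 26 name proteins of the large subunit or its stalk and 13 name proteins of the small subunit. RPL7L1 and RPS19BP1 fit the rule by symbol but encode nucleolar ribosome assembly factors and not ribosome subunits. A further 10 ribosomal protein genes had probe sets annotated to several symbols and were not used. RPL3, RPL10, RPL11, RPL36A, RPL39, RPLP0, RPS4X, RPS27, RPS27A and RPSA had no probe set of their own in the annotation used here.

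The study set haploid embryonic stem cells from parthenogenetic embryos against embryonic stem cells (ESCs) from fertilised embryos and against somatic cells. Parthenogenetic haploid ESCs (PG-haESCs), which carry no sperm genome, gave 5 arrays. Line MPH1 gave arrays 1 to 4, at passages 8, 11, 7 and 9, under the codes M1 (arrays 1 and 2) and M2 (arrays 3 and 4), and line MPH2 gave array 5, at passage 4. Diploid ESCs derived after intracytoplasmic sperm injection (ICSI ESCs) gave 3 arrays, of line MES1 at passage 12 and of lines MES2 and MES3 at passage 4. Diploid cells labelled as female somatic fibroblasts (MF) gave 2 arrays, at passages 14 and 15 under 1 code. The labels name feeder cells and the kinase inhibitors Y27635 and Thiazovivin for the PG-haESC culture, and give no genetic change for any group. The labels do not say whether the arrays of a line came from separate cultures, so the p-values measure only the spread between the 10 samples, which may be technical in part. Precision is limited by the small number of arrays.

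Ribosomal proteins assemble with ribosomal RNA in the nucleolus into the small subunit, which reads the messenger RNA, and the large subunit, which forms the peptide bond. Their messenger RNAs are among the most abundant of a growing cell, and most start with a run of pyrimidines (the TOP motif) through which mTOR and LARP1 control their translation. Pluripotent cells divide rapidly and are known for high ribosome production with a low rate of protein synthesis. Several subunit genes have paralogs that encode near copies of the protein and can replace it in some ribosomes.

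Arrays had been scaled to a trimmed mean of 500, and array medians ran from 76.8 to 133. The geometric mean of 9 hybridisation spike-in control probe sets was highest on PG-haESC array 2 (11049) and ICSI ESC array 1 (9120), and lay between 3850 and 5886 on the other 8 arrays. Pluripotency markers (6 genes of 8 listed were measured) summed to signals between 53396 and 86224 on ESC arrays and to 558 and 682 on the arrays labelled fibroblast. Fibroblast markers (9 genes of 12) summed to 200329 and 201241 on the arrays labelled fibroblast, to 168744 on ICSI ESC array 1, and to between 14084 and 67023 on the other ESC arrays. Not all 9 followed their sum. FN1 (20406 and 20490) and THY1 (1864 and 1549) on the arrays labelled fibroblast lay inside the ESC range. COL6A3 was higher on ICSI ESC array 1 (26260) than on the arrays labelled fibroblast (18210 and 17884). Epidermal markers (9 genes of 11) summed to 326882 and 332612 on the arrays labelled fibroblast and to between 3248 and 4940 on the ESC arrays. The arrays labelled fibroblast thus carried epidermal transcripts at high signal, and their part in any difference from ESCs was not tested. No listed marker had a signal of 0 on any array.

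Most of the 41 genes gave very bright signals on every array. The mean log2 signal corresponded to a signal above 10000 for 25 of the 41 genes, a dividing line chosen after the values were seen. These 25 genes, 17 of the large and 8 of the small subunit, ran from RPL36AL at 13279 to RPL35A at 62716. All were at or above the 99.2 percentile of all probe sets other than controls. The other 16 genes lay at or below 10000. In total, 37 genes were above the array median on all 10 arrays. RPL5 was above it on 7 arrays, RPS27L on 6 and RPS19 on 4, so the signals of these 3 genes lay on both sides of it. RPL3L, the heart and skeletal muscle paralog of RPL3, was above it on 0 arrays, with signals from 9.5 to 65.6, and was the 1 gene of the 41 that was not tested. Signals of different probe sets depend on the probes, so the order of the genes is not an order of transcript levels.

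**Figure D1:**
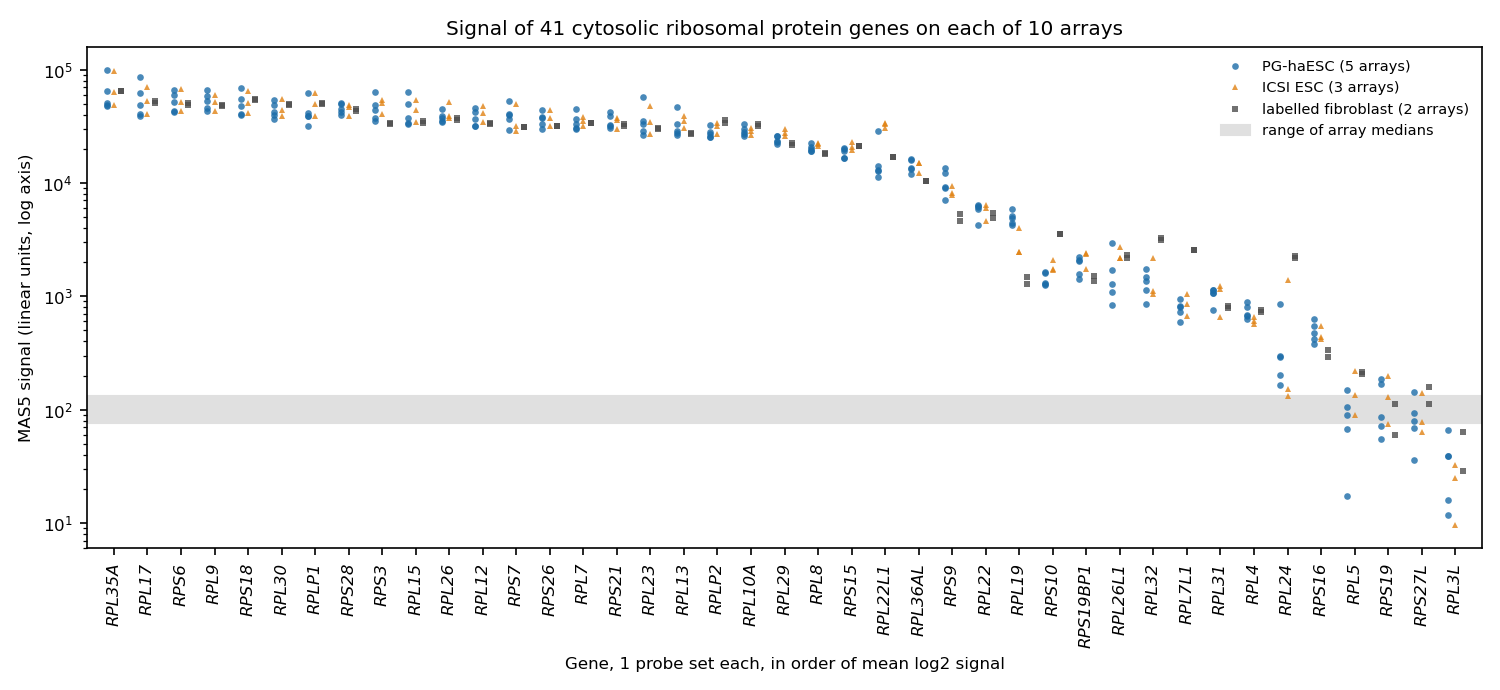
MAS5 signal (linear units on a log axis) of the 41 ribosomal protein genes, in order of mean log2 signal, with 1 point per array (circles, 5 PG-haESC arrays; triangles, 3 ICSI ESC arrays; squares, 2 arrays labelled fibroblast) and a grey band over the range of array medians, 76.8 to 133. The 25 genes at the left lie far above the band, with the 3 groups close together for most of them but not for RPL22L1. The points of RPL5, RPS19 and RPS27L lie in the band and on both sides of it.

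Among the 25 bright genes, the highest array exceeded the lowest by 1.27-fold to 3.01-fold, with a median of 1.56-fold. The gene with the 3.01-fold spread was RPL22L1, and without it the widest spread was 2.23-fold. The SD of log2 signal within groups had a median of 0.22 over these 25 genes. It was 0.19 for the 313 other genes with a mean signal above 10000 and 0.37 for all 11639 genes tested. RPL8, a large-subunit core protein, had one of the smallest within-group SDs (0.08). Over the 8 ESC arrays, the SD of log2 signal was largest for RPL24 (1.23) and RPL5 (1.10), followed by the untested RPL3L (0.96), RPS19 (0.71), RPL22L1 (0.71) and RPL26L1 (0.66). The geometric mean of the 25 bright genes was highest on the same arrays as the spike-in controls, PG-haESC array 2 (43317) and ICSI ESC array 1 (42830), and lay between 29804 and 37493 on the other 8 arrays. The part of array scale in these values was not tested. The 41 genes together held between 1.88% and 2.6% of the summed signal of an array.

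PG-haESCs and ICSI ESCs were compared first, a comparison of haploid parthenogenetic with diploid fertilised ESCs. With limma and Benjamini-Hochberg adjustment over all probe sets tested, 0 of the 40 ribosomal protein genes passed an adjusted p of 0.05, where 0.576% of all genes did. RPL22L1 and RPL19, 2 of the 40, had an unadjusted p under 0.05, as did 1023 of all 11639 genes. The estimated log2 change, PG-haESC minus ICSI ESC, had a median of -0.09 over the 40 genes, against -0.02 over all genes. It was above 0 for 11 of the 40 genes (27.5%), against 47.8% of all genes, and the median turned to 0.04 without ICSI ESC array 1. The change was smaller than 0.5 in either direction for 36 of the 40 genes (90%), against 74.9% of all genes. Above a mean signal of 10000 it was so for 24 of 25 ribosomal protein genes (96%). Of the 313 other genes above it, 300 (95.8%) had such a change, so the shares hardly differ. These sets were not matched further by signal. For 24 of the 25 bright genes the whole 95% interval lay within 1 log2 unit of 0, running without RPL22L1 from -0.89 (RPL35A) to 0.60 (RPL17). A smaller difference in any of these genes is not excluded by these intervals. In bulk RNA, fewer cells of a type and less RNA per cell cannot be told apart. The signals of 3 genes did not overlap between the groups (RPL19, RPL22L1 and RPS10), or 3 of 40, against 8.29% of all genes.

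**Figure D2:**
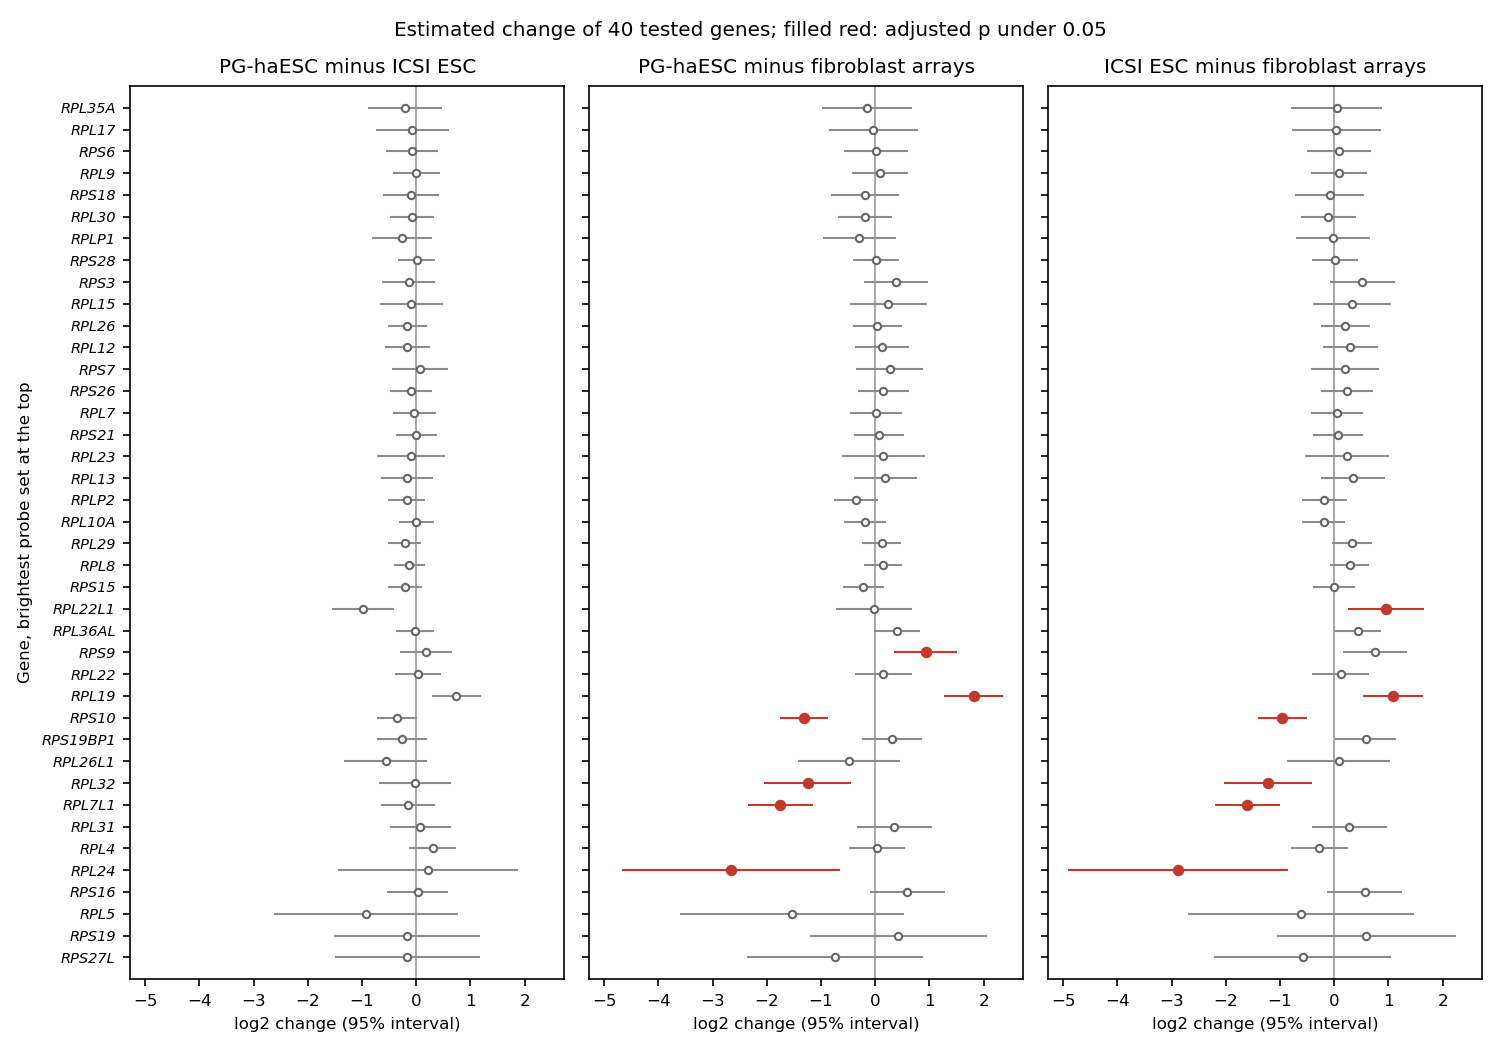
Estimated log2 change with its 95% interval for the 40 tested genes (rows, brightest probe set at the top) in 3 comparisons: PG-haESC minus ICSI ESC, PG-haESC minus arrays labelled fibroblast, and ICSI ESC minus arrays labelled fibroblast. Filled red points have an adjusted p under 0.05, and there are 0 in the first comparison and 6 in each of the others, with the widest intervals at the dim end (RPL5, RPL24, RPS19, RPS27L).

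RPL22L1, the paralog that can take the place of RPL22 in the large subunit, had the smallest p between PG-haESCs and ICSI ESCs by brightest probe sets. Its signals were 12975, 12817, 14169, 11303 and 28978 on PG-haESC arrays 1 to 5 and 30534, 33379 and 34058 on ICSI ESC arrays 1 to 3. The 4 arrays of line MPH1 were low, while the MPH2 array lay just below the ICSI ESC arrays. The arrays labelled fibroblast gave 16808 and 16897, between MPH1 and the other ESC lines. The estimated change from ICSI ESCs was -0.98 ± 0.26 (SE; 95% interval -1.55 to -0.41; adjusted p = 0.18, limma). Without the MPH2 array it was -1.35 with an adjusted p of 0.0043, so 1 array decides this call. Since 1 line then stands for the group, line and ploidy cannot be told apart there. RPL22 itself gave 6153, 4266, 6256, 6371 and 5844 on PG-haESC arrays and 4613, 6352 and 6066 on ICSI ESC arrays. These ranges overlapped, with a change of 0.03 ± 0.20 (adjusted p = 1).

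The 4 MPH1 arrays lay below the other 4 ESC arrays for 3 of the 40 genes and above them for 0, or 7.5% of the genes against 8.2% of all genes tested. These 3 genes are RPL22L1, RPL26L1 and RPS10, which were singled out after their values were seen. By geometric mean, RPL22L1 was 2.48-fold lower in MPH1, RPL26L1 2.09-fold and RPS10 1.32-fold. RPL26L1, which encodes a near-identical paralog of RPL26, gave 1723, 1291, 1089, 833 and 2966 on PG-haESC arrays 1 to 5 and 2178, 2739 and 2194 on ICSI ESC arrays. As with RPL22L1, MPH2 lay apart from MPH1, here above all ICSI ESC arrays. Its change between the groups was -0.57 ± 0.36 (95% interval -1.34 to 0.21; adjusted p = 0.87). The arrays labelled fibroblast gave 2300 and 2160 for RPL26L1, inside the range of the ICSI ESC arrays at the upper array and just below it at the lower. On its brightest probe set RPL26 itself ran from 34657 to 44543 on PG-haESC arrays and from 37116 to 51900 on ICSI ESC arrays. These ranges overlap, and another probe set of RPL26 is given below.

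RPL19, a large-subunit protein at the contact with the small subunit, gave 4289, 4914, 5921, 5113 and 4459 on PG-haESC arrays and 4010, 2471 and 2478 on ICSI ESC arrays. All PG-haESC arrays lay above all ICSI ESC arrays, with MES1 closest to them. The estimated change was 0.74 ± 0.21 (95% interval 0.28 to 1.19; adjusted p = 0.22). Without the MES1 array the change was 0.98 with an adjusted p of 0.018, so this call too turns on 1 array. RPS10, a small-subunit protein of the mRNA entry side, gave 1302, 1248, 1286, 1599 and 1628 on PG-haESC arrays and 2073, 1703 and 1744 on ICSI ESC arrays. The groups did not overlap but came close to each other (1628 and 1703), and the change was -0.35 ± 0.17 (adjusted p = 0.71). Of the next genes by p, RPL4 had a change of 0.30 ± 0.20 (adjusted p = 0.89), RPL29 of -0.21 ± 0.14 (0.89), RPS15 of -0.21 ± 0.15 (0.90) and RPS19BP1 of -0.27 ± 0.21 (0.93). RPL5, which with RPL11 carries the small ribosomal RNA of the large subunit and binds MDM2, gave 17.1, 68.1, 149 and 105 on the MPH1 arrays, 90 on MPH2, and 89.2, 134 and 219 on the ICSI ESC arrays. The groups overlapped, PG-haESC array 1 lay far below its array median (96.1), and the estimate was -0.93 ± 0.78 (adjusted p = 0.94).

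**Figure D3:**
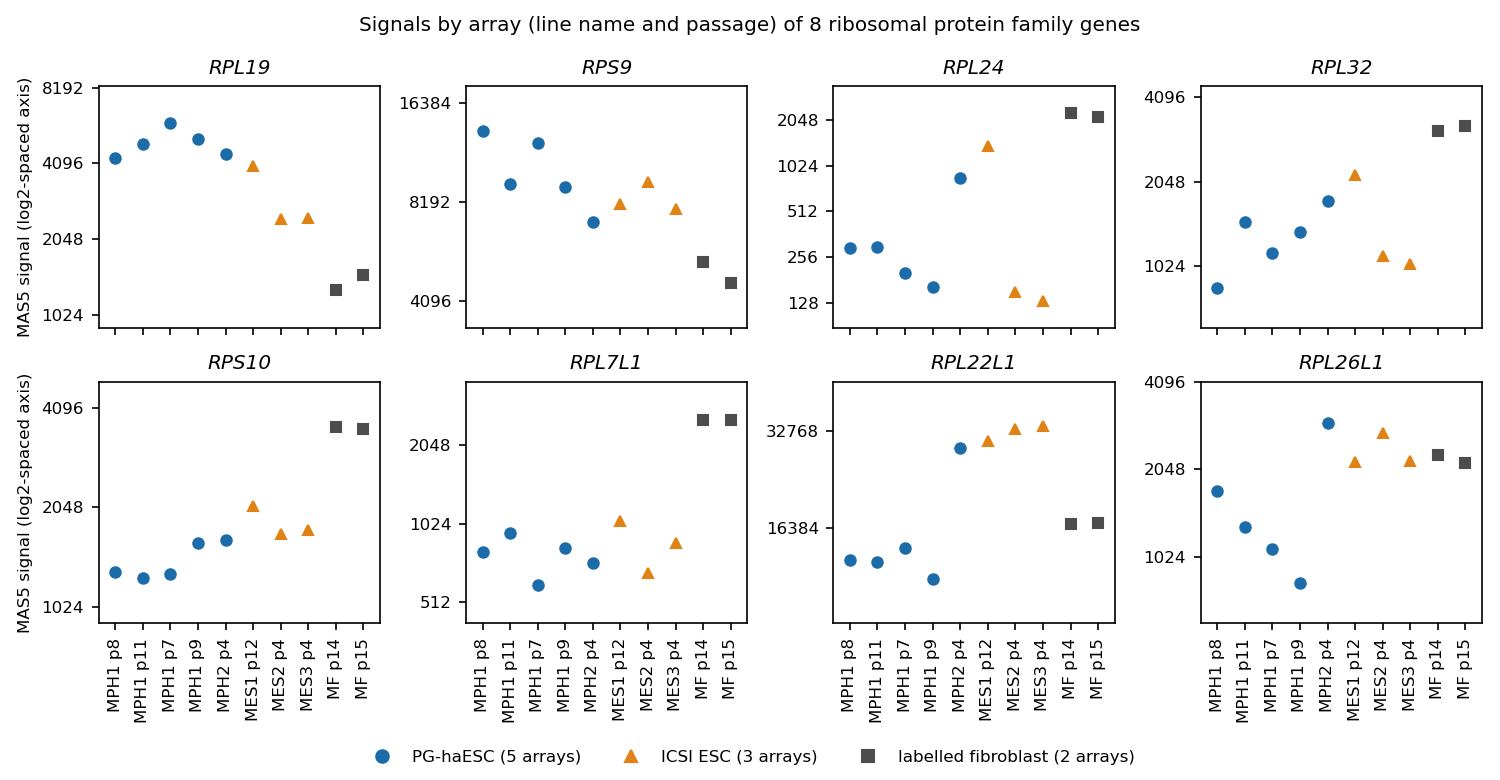
Signal of 8 genes on each array (log2-spaced axis), by line name and passage (circles, PG-haESC; triangles, ICSI ESC; squares, labelled fibroblast). RPL22L1 and RPL26L1 are low on the 4 MPH1 arrays and not on the MPH2 array, RPL19 is highest on the PG-haESC arrays, and RPL24, RPL32, RPS10 and RPL7L1 are highest on the arrays labelled fibroblast.

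Both kinds of ESC were then set against the arrays labelled fibroblast. The comparisons share those 2 arrays, which are of 1 line (MF), so line and cell type cannot be told apart in them. Each comparison has its own values below. In PG-haESCs 6 of 40 ribosomal protein genes passed the test, where 40.3% of all genes did. RPL19 and RPS9 rose, and RPL24, RPL32, RPL7L1 and RPS10 fell. In ICSI ESCs 6 of 40 passed, where 39.6% of all genes did. RPL19 and RPL22L1 rose, and RPL24, RPL32, RPL7L1 and RPS10 fell. The share of genes called was thus below the background in both comparisons. With arrays centred on their medians the calls were 3 higher and 2 lower in both comparisons, and with arrays centred on the median ribosomal protein gene they were 1 higher and 5 lower (PG-haESC) and 0 higher and 6 lower (ICSI ESC). The median log2 change was 0.03 in PG-haESCs, against 0.06 for all genes, and 0.09 in ICSI ESCs, against 0.08 for all genes. Changes were smaller than 0.5 in either direction for 31 of the 40 genes (77.5%) in PG-haESCs and 27 of 40 (67.5%) in ICSI ESCs, against 30.4% and 30.2% of all genes. Groups did not overlap for 13 and 19 of the 40 genes, against 64.2% and 69.5% of all genes.

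The bright genes accounted for few of these calls. Of the 25 bright genes 0 passed in PG-haESCs against the arrays labelled fibroblast, also 0 at an unadjusted p under 0.05, and 1 (RPL22L1) passed in ICSI ESCs. Of the 313 other genes with a mean signal above 10000, 186 were higher and 8 lower in PG-haESCs. In ICSI ESCs 187 of them were higher and 7 lower. The 313 were not matched to the 25 by signal beyond that line. For PG-haESCs the 95% intervals of all 25 bright genes lay within 1 log2 unit of 0, from -0.99 (RPL35A) to 0.97 (RPS3). For ICSI ESCs 21 of the 25 lay within it, with the highest upper bound at 1.65 (RPL22L1). RPS3, a small-subunit protein at the mRNA entry channel, gave 32891 and 33798 on the arrays labelled fibroblast, 53490, 40304 and 50451 on the ICSI ESC arrays and 49030, 63509, 37360, 44234 and 35454 on PG-haESC arrays. Every ESC array was higher, but the ESC arrays spread widely, and the changes of 0.38 ± 0.27 (PG-haESC, adjusted p = 0.32) and 0.52 ± 0.27 (ICSI ESC, 0.17) did not pass. RPS6, the small-subunit protein phosphorylated by the S6 kinases, gave 48738 and 51051 on the arrays labelled fibroblast, inside the ESC range of 42406 to 67163. Its changes were 0.02 ± 0.27 and 0.09 ± 0.27.

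All 6 genes that passed in PG-haESCs were among the 16 dimmer ones. RPL19 gave 1284 and 1474 on the arrays labelled fibroblast, below all 8 ESC arrays given above. It was 3.52-fold higher in PG-haESCs (log2 change 1.81 ± 0.25, adjusted p = 0.00016) and 2.11-fold higher in ICSI ESCs (1.08 ± 0.25, 0.0059). RPS9, a small-subunit protein near the decoding site, gave 5358 and 4649 on the arrays labelled fibroblast, 8075, 9426 and 7798 on the ICSI ESC arrays and 13437, 9289, 12358, 9092 and 7100 on PG-haESC arrays. Every ESC array was higher. RPS9 was 1.90-fold higher in PG-haESCs (0.93 ± 0.27, adjusted p = 0.019), a call lost without array 2 labelled fibroblast (adjusted p = 0.088), with arrays averaged per line (0.11), centred on the median ribosomal protein gene (0.065), with no intensity trend (0.061) or with passage (0.073). Its change of 0.75 ± 0.27 in ICSI ESCs had an adjusted p of 0.052.

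RPL7L1, the nucleolar paralog of RPL7 that acts in ribosome assembly, gave 2558 and 2557 on the arrays labelled fibroblast, 1050, 664 and 862 on the ICSI ESC arrays and 799, 940, 593, 826 and 721 on PG-haESC arrays. It was 3.36-fold lower in PG-haESCs (-1.75 ± 0.28, adjusted p = 0.00042) and 3.03-fold lower in ICSI ESCs (-1.60 ± 0.28, 0.00087). The decrease passed on 1 of its 4 tested probe sets. The second brightest had estimates above 0, of 0.35 ± 0.44 (adjusted p = 0.59) and 0.79 ± 0.45 (0.2). So did the third, with 0.22 ± 0.58 (0.82) and 0.67 ± 0.58 (0.43). The dimmest had estimates of -0.48 ± 0.58 (adjusted p = 0.58) and -0.33 ± 0.58 (0.72). The mean of the 4 changed by -0.41 (adjusted p = 0.42) and -0.12 (0.85). RPL7 itself gave 33512 and 34006 on the arrays labelled fibroblast, inside the ESC range of 29818 to 44959, with changes of 0.01 ± 0.22 and 0.05 ± 0.22. RPS10 gave 3580 and 3535 on the arrays labelled fibroblast, above all ESC arrays. It was 2.48-fold lower in PG-haESCs (-1.31 ± 0.21, adjusted p = 0.0004) and 1.94-fold lower in ICSI ESCs (-0.96 ± 0.21, 0.0036). With arrays centred on their medians these calls were lost (adjusted p = 0.063 and 0.21). RPL19, RPL7L1 and RPS10 passed in both comparisons with any 1 array left out. Leaving out 1 of the 2 arrays labelled fibroblast keeps the same line, with much the same values. It therefore cannot show whether the calls hold for another line. The ICSI ESC call of RPL19 was lost with arrays averaged per line (adjusted p = 0.053) and with arrays centred on the median ribosomal protein gene (0.091).

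RPL32, a large-subunit protein, gave 3107 and 3236 on the arrays labelled fibroblast, 2173, 1112 and 1043 on the ICSI ESC arrays and 859, 1471, 1144, 1355 and 1745 on PG-haESC arrays. It was 2.37-fold lower in PG-haESCs (-1.24 ± 0.37, adjusted p = 0.021) and 2.33-fold lower in ICSI ESCs (-1.22 ± 0.37, 0.024). Each call was lost without either array labelled fibroblast (adjusted p = 0.06 and 0.071 in PG-haESCs, 0.069 and 0.082 in ICSI ESCs), and the ICSI ESC call also without MES2 (0.066) or MES3 (0.075). Both were also lost with arrays averaged per line (0.14 and 0.094), centred on their medians (0.11 and 0.12), with no intensity trend (0.056 and 0.063) and with passage as a covariate (0.25 and 0.32), and the PG-haESC call with the mean of all probe sets (0.072). RPL24, a large-subunit protein that joins late, in the cytoplasm, gave 2287 and 2157 on the arrays labelled fibroblast, 1385, 151 and 132 on the ICSI ESC arrays and 293, 300, 203, 164 and 848 on PG-haESC arrays. ESC arrays thus spread widely, with MES1 far above the other ICSI ESC lines, and the arrays labelled fibroblast were above all of them. RPL24 was 6.34-fold lower in PG-haESCs (-2.66 ± 0.93, adjusted p = 0.043) and 7.35-fold lower in ICSI ESCs (-2.88 ± 0.94, 0.032). The PG-haESC call was lost without any 1 of the MPH1 arrays 1 to 4 (adjusted p = 0.066, 0.085, 0.074 and 0.062) or of the 2 arrays labelled fibroblast (0.12 and 0.1). In ICSI ESCs it was lost without PG-haESC array 2 (0.053), MES2 (0.091), MES3 (0.1) or either array labelled fibroblast (0.098 and 0.09). Without MES1 the ICSI ESC estimate was -3.98, without MES3 it was -2.28, and without the MPH2 array the PG-haESC estimate was -3.26. Both calls were also lost with arrays averaged per line (0.28 and 0.15), with no intensity trend (0.092 and 0.075), with robust variance (0.085 and 0.067) and with passage (0.39 and 0.38). Among ESC arrays RPL24 and RPL32 were highest on ICSI ESC array 1, which also had the highest fibroblast marker sum of the ESC arrays (168744). The part of other cells in these signals was not tested.

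Of 8 listed paralogs, 6 were measured and 5 tested (RPL7L1, RPL22L1, RPL26L1, RPL36AL and RPS27L). Between PG-haESCs and ICSI ESCs 0 of the 5 passed, and all 5 estimates were below 0, with a median of -0.17 against -0.02 over all genes. Estimates above 0 made up 27.5% of the 40 ribosomal protein genes and 47.8% of all genes. In PG-haESCs against the arrays labelled fibroblast 1 of the 5 was lower (RPL7L1), and in ICSI ESCs 1 was higher (RPL22L1) and 1 lower (RPL7L1), where 40.3% and 39.6% of all genes passed. The rise of RPL22L1 in ICSI ESCs was 1.94-fold (0.95 ± 0.32, adjusted p = 0.039). That call was lost without either array labelled fibroblast (adjusted p = 0.11 each), PG-haESC arrays 1, 2 or 3 (0.051, 0.052 and 0.055), MES2 (0.077) or MES3 (0.085). It was also lost with arrays averaged per line (0.13), quantile normalization (0.18), centring on array medians (0.062) or on the median ribosomal protein gene (0.22), no intensity trend (0.095) and passage (0.47). In PG-haESCs its change was -0.02 ± 0.32 (adjusted p = 0.97), with MPH1 below and MPH2 above the arrays labelled fibroblast. RPL36AL, the autosomal paralog of RPL36A, gave 10449 and 10402 on the arrays labelled fibroblast and 12112 to 16408 on ESC arrays. All ESC arrays were above both, with changes of 0.41 ± 0.19 (adjusted p = 0.13) and 0.43 ± 0.20 (0.11) that did not pass. RPS27L, a p53-inducible paralog of RPS27, ran from 35.9 to 159, above the array median on 6 arrays, and its changes of -0.75 ± 0.75 and -0.58 ± 0.75 carry wide errors.

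The acidic stalk, which recruits the translation factors that hydrolyse GTP, was measured through RPLP1 and RPLP2. RPLP1 gave 50252 and 49947 on the arrays labelled fibroblast, 62431, 38584 and 49320 on the ICSI ESC arrays and 41283, 62002, 31542, 38758 and 38589 on PG-haESC arrays. Its 2 highest values came from the arrays with the highest spike-in signals, and the groups overlapped, with changes of -0.29 ± 0.31 (PG-haESC) and -0.03 ± 0.32 (ICSI ESC) from the arrays labelled fibroblast. RPLP2 gave 34061 and 35554 on the arrays labelled fibroblast, 33698, 27158 and 31655 on the ICSI ESC arrays and 28061, 32495, 25458, 26757 and 25183 on PG-haESC arrays. Every ESC array was below both arrays labelled fibroblast. The changes of -0.36 ± 0.19 (adjusted p = 0.17) and -0.18 ± 0.19 (0.52) did not pass, although the PG-haESC change passed with quantile normalization, with arrays centred on the median ribosomal protein gene and without both arrays of highest spike-in signal. By subunit, 3 of 25 tested large-subunit genes and 2 of 13 small-subunit genes passed in PG-haESCs against the arrays labelled fibroblast, and 4 of 25 and 1 of 13 in ICSI ESCs, all below the 40.3% and 39.6% of all genes. Mutations in many subunit genes cause Diamond-Blackfan anaemia, an inherited failure of red cell production. Of 19 such genes listed, 10 were measured, and 0, 1 and 1 of them passed between PG-haESCs and ICSI ESCs and in the PG-haESC and ICSI ESC comparisons with the arrays labelled fibroblast, the last 2 being RPS10, where 0.576%, 40.3% and 39.6% of all genes passed. RPS19, the gene first linked to that anaemia, ran from 54.6 to 197, above the array median on 4 arrays, with changes of 0.43 ± 0.75 and 0.59 ± 0.76.

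Several genes were covered by more than 1 probe set, and these often differed. In all, 17 genes had 2 or more tested probe sets. Their estimates had the same sign in 7 of 17 genes between PG-haESCs and ICSI ESCs, in 6 for PG-haESCs against the arrays labelled fibroblast, and in 7 for ICSI ESCs against them. The median range of log2 change within a gene was 0.34, 0.71 and 0.55 in these comparisons. A call came only from a probe set other than the brightest in 0, 5 and 6 genes, and 0 genes had calls in both directions. RPS15, a small-subunit protein near the decoding site, gives an example. Its brightest probe set gave 21371 and 21114 on the arrays labelled fibroblast and 16706 to 23068 on ESC arrays. The second gave 7174 and 7317 on the arrays labelled fibroblast, 21114, 18867 and 22747 on the ICSI ESC arrays and 28507, 30641, 23817, 21458 and 18346 on PG-haESC arrays. The second probe set was thus higher on every ESC array, by 1.68 ± 0.24 in PG-haESCs (adjusted p = 0.00017) and 1.52 ± 0.24 in ICSI ESCs (0.00038). The brightest changed by -0.22 ± 0.18 and -0.01 ± 0.18. The dimmest RPL22 probe set gave 25.7 and 46.3 on the arrays labelled fibroblast and 111 to 189 on ESC arrays. It rose by 1.92 ± 0.54 in PG-haESCs (adjusted p = 0.017) and 2.15 ± 0.55 in ICSI ESCs (0.0093). The brightest RPL22 probe set changed by 0.15 ± 0.24 and 0.12 ± 0.24.

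RPL15, RPL26 and RPL29 of the large subunit showed the opposite order. The second probe set of RPL15 gave 9415 and 9454 on the arrays labelled fibroblast and 4060 to 6294 on ESC arrays, and it was lower by -0.71 ± 0.20 in PG-haESCs (adjusted p = 0.017) and -1.14 ± 0.20 in ICSI ESCs (0.0011). Its brightest probe set changed by 0.24 ± 0.33 and 0.33 ± 0.33. The second RPL26 probe set gave 1528 and 1493 on the arrays labelled fibroblast, 383, 464 and 429 on the ICSI ESC arrays and 691, 629, 936, 906 and 1444 on PG-haESC arrays. ICSI ESC arrays were the lowest of the 3 groups there, at -1.83 ± 0.33 from the arrays labelled fibroblast (adjusted p = 0.0011). The PG-haESC change of -0.67 ± 0.33 (0.14) did not pass. Between the ESC groups this probe set was higher in PG-haESCs by 1.16 ± 0.27 (limma, unadjusted p = 0.001, adjusted p = 0.11), with no overlap. That p was smaller than the one of RPL22L1 (0.0028), and the change went the other way. The second RPL29 probe set was lower by -0.61 ± 0.20 in PG-haESCs (adjusted p = 0.034) and -0.75 ± 0.20 in ICSI ESCs (0.012). The third, at -0.66 ± 0.26 (0.065) and -0.60 ± 0.26 (0.097), did not pass. The brightest changed by 0.12 ± 0.17 and 0.33 ± 0.17. Of the 5 tested probe sets of RPL13, 1 set the MPH1 line apart, with 30243, 20787, 23154 and 23496 on the MPH1 arrays, 6919 on MPH2, 5099, 8154 and 7447 on the ICSI ESC arrays, and 14639 and 14151 on the arrays labelled fibroblast. The brightest RPL13 probe set ran from 26244 to 46565 on ESC arrays with overlapping groups. Of the 41 probe sets used, 13 carry names that mark probes shared with other transcripts. Processed pseudogenes are numerous in this family, and which copies a probe set reads was not tested.

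**Figure D4:**
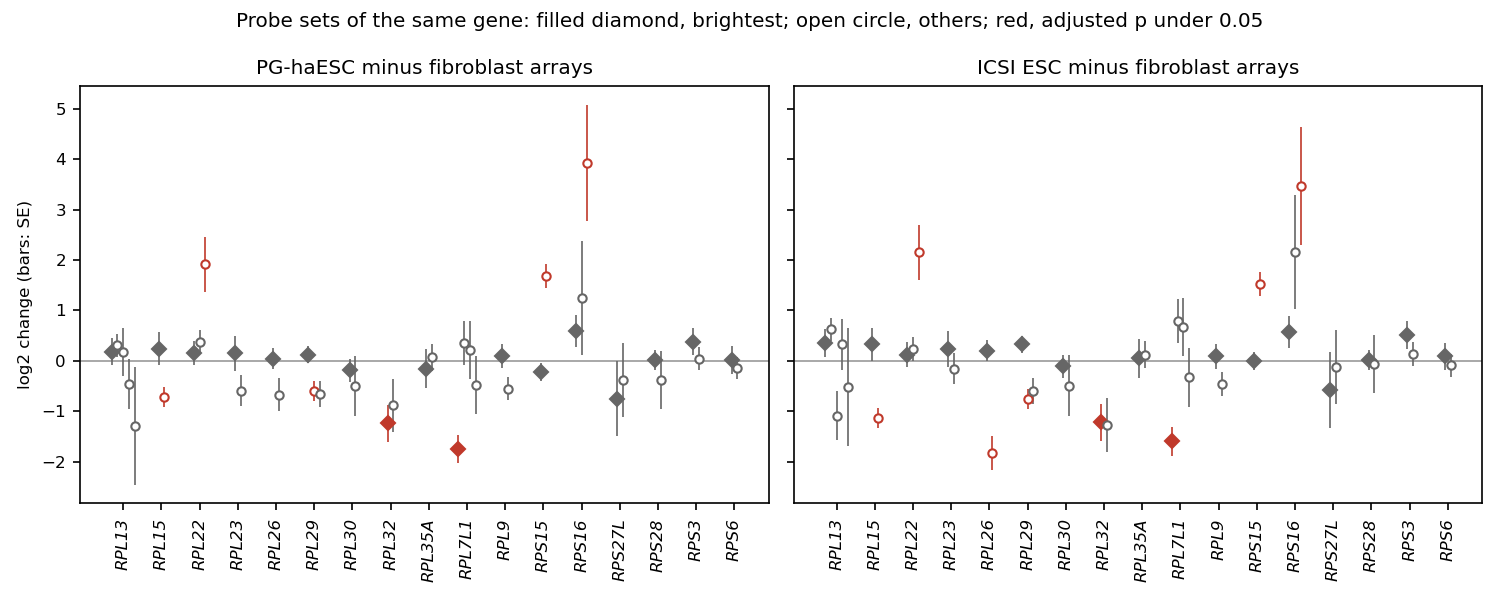
Log2 change (bars: SE) of each tested probe set of the 17 genes with 2 or more, for PG-haESC (left) and ICSI ESC (right) minus the arrays labelled fibroblast. Filled diamonds are the brightest probe set of a gene, open circles the others, and red marks an adjusted p under 0.05. RPS15, RPL15, RPL26, RPL7L1, RPS16, RPL22 and RPL13 have probe sets far apart.

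Genes that build the ribosome gave other counts than its proteins. Of 66 listed ribosome biogenesis genes, 52 were measured and tested, and limma called 0 of them between the ESC groups (5 had an unadjusted p under 0.05, against 1023 of all 11639 genes). Against the arrays labelled fibroblast, 36 rose and 1 fell in PG-haESCs, and 34 rose and 1 fell in ICSI ESCs, with median log2 changes of 1.12 and 1.09. Of all 11639 genes, 2682 rose and 2009 fell in PG-haESCs, and 2625 rose and 1982 fell in ICSI ESCs. The 313 other genes with a mean signal above 10000, most of them called higher (186 and 187), had medians of 0.89 and 0.87. Cell cycle markers moved the same way, with a mean log2 signal of 9.18 and 9.24 on the arrays labelled fibroblast and 12.5 to 12.9 on ESC arrays, and their part was not tested. NPM1, the nucleolar chaperone of assembly, gave 18771 and 19980 on the arrays labelled fibroblast and 38745 to 71346 on ESC arrays, and it rose by 1.32 ± 0.30 in PG-haESCs (adjusted p = 0.0047). FBL, the methyltransferase of ribosomal RNA, gave 13516 and 13082 on the arrays labelled fibroblast and 23012 to 31757 on ESC arrays, with a rise of 1.00 ± 0.19 (0.0016). Both genes also gave signals above 10000 on every array, and both were higher on every ESC array. NOP56, of the same RNA-guided complex, rose by 1.84 ± 0.23 (7.2e-05), and the gene that fell in both was SBDS, which helps to release a factor from the new large subunit (-0.76 ± 0.19, 0.0083, and -1.13 ± 0.19, 0.00069). With arrays scaled to equal spike-in signal, a setting chosen after seeing the data, 2 biogenesis genes were called higher in each comparison, and 0 (PG-haESC) and 1 (ICSI ESC, RPL24) ribosomal protein genes were called.

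**Figure D5:**
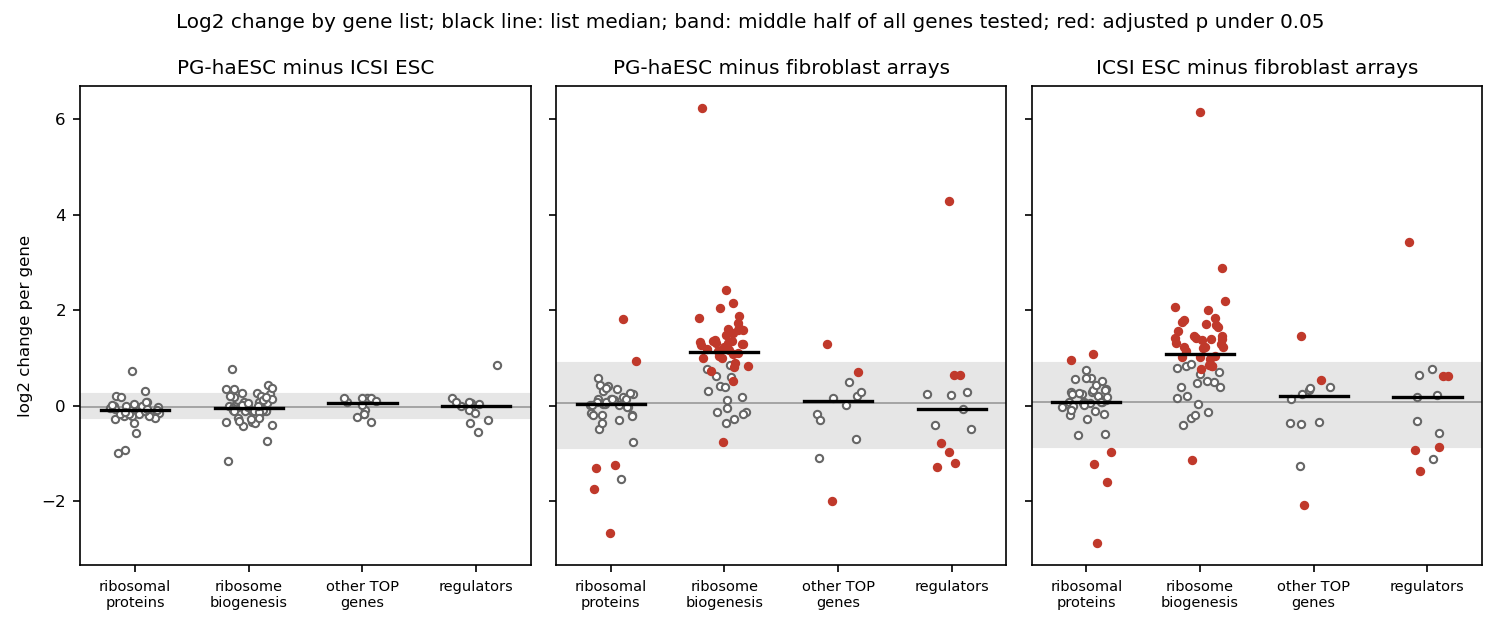
Log2 change per gene (points; red, adjusted p under 0.05) for 40 ribosomal protein, 52 ribosome biogenesis, 12 other TOP and 13 regulator genes in the 3 comparisons. Black lines are list medians, the grey line the median and the band the interquartile range of all genes tested. In the comparisons with the arrays labelled fibroblast the medians are 1.12 and 1.09 for biogenesis genes and 0.03 and 0.09 for ribosomal protein genes.

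Other genes of TOP messenger RNAs were listed as well, among them subunit genes without RPL or RPS symbols. Of 20 listed, 12 were measured, and 0 passed between PG-haESCs and ICSI ESCs. Against the arrays labelled fibroblast 2 rose (HNRNPA1 and EIF3L) and 1 fell (NACA) in both kinds of ESC, below the 40.3% and 39.6% of all genes. FAU, whose product is cleaved to a small-subunit protein, gave 29244 and 29447 on the arrays labelled fibroblast and 28040 to 48585 on ESC arrays, with changes of 0.17 ± 0.27 and 0.15 ± 0.27. RACK1, a scaffold on the small subunit, gave 35791 and 36339 on the arrays labelled fibroblast and 30284 to 50875 on ESC arrays, with changes of 0.02 ± 0.26 and 0.25 ± 0.26. Both thus overlapped between ESC arrays and the arrays labelled fibroblast, as most bright ribosomal protein genes did. NACA, a chaperone subunit at the exit tunnel, fell by 1.99 on the log2 scale in PG-haESCs (SE 0.32, adjusted p = 0.00048). Of 18 listed regulators of ribosomal protein genes, 14 were measured and 13 tested. In PG-haESCs against the arrays labelled fibroblast MYCN, YY1 and LARP1 rose, and TSC2, RPS6KB1, RPS6KB2 and RPTOR fell, 7 of 13 where 40.3% of all genes passed. In ICSI ESCs 3 rose and 3 fell, where 39.6% of all genes passed, the change of RPS6KB2 having an adjusted p of 0.064. MYCN, a transcription factor that drives growth genes, gave 586 and 606 on the arrays labelled fibroblast, 7146, 7173 and 5218 on the ICSI ESC arrays and 10969, 7012, 13113, 13818 and 13289 on PG-haESC arrays. It rose by 4.28 ± 0.32 in PG-haESCs (adjusted p = 1.4e-06) and 3.44 ± 0.32 in ICSI ESCs (8.4e-06), while the estimate between the ESC groups was 0.85 ± 0.26 (0.3). LARP1, which binds the TOP motif, rose by 0.64 ± 0.16 (0.0078) and 0.63 ± 0.16 (0.0087).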

How the data were processed

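The deposited values are linear signal intensity of 52865 probe sets, which the authors made with MAS5, per the submitters' processing notes. Its release, and a genome build, are not given in the sources used here. Per the labels' protocols, TRIZOL was used for extraction and a 3' IVT Express kit for labelling, so probes read transcripts near their 3' end. Values hold no detection calls. Symbols came from the probe annotation given, and all 41 symbols were found in the gene table of assembly T2T-MFA8v1.1.

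After removal of 158 control probe sets, those with a signal over the array median on 2 or more arrays (34140) were tested. Groups followed the labels. limma 3.58.1 in R 4.3.3 was fitted to log2 signal of all 10 arrays, with a mean per group, a random effect of cell line (correlation 0.286), a variance trend and two-sided tests. There were residual and prior degrees of freedom of 7 and 5.37, respectively. P-values were adjusted by Benjamini-Hochberg over all probe sets tested, and 0.05 was the threshold. Because of the line effect, an estimate can differ from the ratio of printed group values. Intervals are at 95%. The method was tested on simulated data. Figures were drawn with matplotlib 3.10.9.

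The genes and lists were chosen with earlier results of these data known. Genes named with values were the 10 of smallest p between PG-haESCs and ICSI ESCs, those passing against the arrays labelled fibroblast, the stalk, paralogs and their partners, RPL5, RPS6 and RPS19, and those of largest spread over ESC arrays or highest or lowest signal. RPS3, RPL8 and the genes with differing probe sets were added after their values were seen. In all, 26 alternatives were set before and 2, both on spike-in signal, after the data were seen. No sequences were analysed here.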

Additional observations from a re-analysis of the deposited data

Results flagged for a closer look

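Within the PG-haESC group of 5 arrays, the gap of the highest or lowest array to the next, as a share of the group's range of log2 signal, was compared with Dixon's critical value of 0.71. Chance gives such a value in about 1 of 20 groups, and 3 of the 44 groups tested did. RPL31, a large-subunit protein, was low on array 2 (share 0.84), with 752 against 1072 to 1147 on the other 4 arrays. RPL22 was low on the same array (0.785), with 4266 against 5844 to 6371. That array had the highest spike-in signal. On ICSI ESC array 1, of the second highest spike-in signal, both genes were also the lowest of their group, at 658 (RPL31) and 4613 (RPL22). RPL22L1 was high on array 5 (0.76), the only array of line MPH2, with 28978 against 11303 to 14169.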

How the results depend on the processing

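The genes called, and RPL22L1, RPL19, RPS10 and RPL26L1 between PG-haESCs and ICSI ESCs, kept their direction under all 28 alternatives. Settings that change only the variance or the threshold (no intensity trend, robust variance and a fold cut-off) cannot alter a direction. For these genes the setting without names that mark shared probes kept the same probe sets. Changed filters, and leaving out arrays of a group outside the comparison, kept the same signals. The mean of all probe sets did so too for genes with 1 probe set. These settings thus say little about direction. The count of ribosomal protein genes called between PG-haESCs and ICSI ESCs was 0 to 1 with each array left out, and 1 (RPL19) without both arrays of highest spike-in signal. Against the arrays labelled fibroblast it was 3 to 7 in each kind of ESC with each array left out. In PG-haESCs it was 3 with arrays averaged per line, 10 with quantile normalization, 3 with no intensity trend and 0 with arrays scaled to equal spike-in signal. In ICSI ESCs it was 2 with arrays averaged per line, 3 with no intensity trend, 12 with passage as a covariate and 1 with equal spike-in signal. The median change between PG-haESCs and ICSI ESCs ran from -0.254 to 0.0422 with each array left out and was 0.155 with arrays centred on the median ribosomal protein gene. In PG-haESCs against the arrays labelled fibroblast it ran from -0.00125 to 0.1, and was 0.36 with arrays centred on their medians, -0.128 centred on the median ribosomal protein gene and 0.293 with passage. In ICSI ESCs it ran from 0.0202 to 0.226, and was 0.371, -0.319 and 0.452 in those settings. Centring on the median ribosomal protein gene makes the array medians of these same genes equal. The median change under it therefore cannot show a shift of these genes. Centring on array medians moved the median of all genes by 0.33 (PG-haESC) and 0.28 (ICSI ESC), quantile normalization by 0.18 and 0.17, and passage by 0.15 and 0.16. Passages were 14 and 15 on the arrays labelled fibroblast and 4 to 12 on ESC arrays, without overlap. The passage setting therefore cannot fully separate passage from cell type. Biogenesis genes called higher numbered 30 to 39 in each comparison with each array left out, 23 in PG-haESCs with arrays averaged per line, and 2 and 2 with equal spike-in signal. The causes were not tested. Where each repeated line was a whole group (without PG-haESC array 5, and ICSI ESC with fibroblast arrays alone), the line correlation of the full model was used, and a lone array of a group is assumed to vary like the other groups. Signal limits what can be read from RPL5, RPS19 and RPS27L, which lay below the array median on some arrays, and RPL3L, below it on all 10, was not tested. No paired analysis was possible because the shared replicate numbers of ICSI ESC and fibroblast arrays name no common source.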
